A study of Mus musculus with 4 samples.

Results

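The genes described here encode the enzymes of the tricarboxylic acid (TCA) cycle and the proteins that bring pyruvate, glutamate and acetate into it, with the regulators of the pyruvate step. They were chosen by name as a list of 38 gene symbols, and all 38 were found among the 24784 genes of the deposited table. RNA had been sequenced from tumour-associated macrophages that were sorted by flow cytometry. The mice were male, 6 to 8 weeks of age, and bore liver tumours of Hepa 1-6, a hepatoma line of the mouse. The 4 libraries comprised 2 of genotype control and 2 of genotype OXCT1mKO, a label that names Oxct1, the gene of the mitochondrial enzyme that activates acetoacetate as a fuel. The sources used here do not give the strain, the driver of the deletion, the antibodies of the sort or whether animals were pooled. Levels are in RPKM, which divides reads by gene length and library size, so that levels may be compared between genes.

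In the TCA cycle, acetyl-CoA condenses with oxaloacetate to citrate, which is oxidised stepwise back to oxaloacetate while electrons pass to NADH and to the respiratory chain. Pyruvate enters mitochondria through a carrier and becomes acetyl-CoA through the pyruvate dehydrogenase complex, which kinases switch off and phosphatases switch on. Glutamine carbon enters as 2-oxoglutarate, acetate is activated to acetyl-CoA by synthetases, and ketone bodies reach the cycle as acetyl-CoA through the enzyme that Oxct1 encodes. In macrophages the cycle is known to be remodelled on activation, with citrate, succinate and the derived metabolite itaconate as signals.

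Each difference between the groups was read from a limma fit over the 12523 genes whose mean RPKM reached 1, on the log2(RPKM + 1) scale, with p-values adjusted over all of them by the Benjamini-Hochberg method and a threshold of 0.05. Of those genes 32.8% passed, 16.4% higher and 16.4% lower in OXCT1mKO. All 38 TCA cycle and entry genes were tested, and 11 passed (28.9%), a share near that background. Of the 11, 2 were higher and 9 lower. The median log2 fold change of the 38 genes was -0.21, against 0.0045 for all genes tested, and 29 of the 38 values were below 0. In 30 of the 38 genes the libraries of the groups did not overlap, against 74.7% of all genes tested. OXCT1mKO lay below control in 24 of these, against 37% of all genes, and above it in 6, against 37.6%.

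Several facts of the libraries touch every value below. The read depth is unknown, and the RPKM sums were 355951 to 377575 in control and 325034 to 327811 in OXCT1mKO. When each library was scaled to the same sum without globin genes, the 38 genes split into 4 higher and 4 lower and their median became -0.11, while the split over all genes tested went from 2058 higher and 2052 lower to 2718 and 1479. Every one of the 11 calls was lost when OXCT1mKO 1 or OXCT1mKO 2 was left out, and then 1 and 10 of all genes passed, respectively. Control 1 stood apart from the other libraries in globin, which made up 8.81% of its RPKM sum against 0.327% in control 2 and 0.137% and 0.132% in OXCT1mKO. Without control 1, 4 of the 38 genes were higher and 6 lower, and Mdh1, Mdh2, Pdp1, Sdhc and Suclg2 lost their calls, and without control 2 Mdh1 did. All 11 kept their direction in each of those fits, but their groups did not overlap, so leaving out a library could not turn it. Of 7 other settings that kept the 4 libraries, Idh2, Idh3g, Pdhb and Pdk4 passed in all 7 and Mdh2 in 6, Idh3a in 5, Suclg2 in 4, and Sdhc and Mdh1 in 3 each. Acss1 and Pdp1 could be tested in 6 of them and passed in 6 and 3. The targeted gene Oxct1 stood at 19.3 and 20.3 RPKM in the controls, and at 14.7 and 15.4 RPKM in the OXCT1mKO libraries. The difference of -0.37 ± 0.09 (SE) on the log2 scale passed (limma adjusted p 0.0346), and reads of the gene remained in both OXCT1mKO libraries. This call was lost without the filter (limma adjusted p 0.0504), with equal RPKM sums (0.0627) and with the replicate number as a block (0.0577). It was also lost without control 2, OXCT1mKO 1 or OXCT1mKO 2, where the log2 fold change was -0.34, -0.34 and -0.41. The direction was kept, but as the groups did not overlap, leaving out a library could not turn it.

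Markers of other cell types were also detected in the sorted samples, and several of these lists differed between the groups. Of 12 macrophage markers, all detected in every library, 6 were higher and 1 was lower in OXCT1mKO, and their summed level was 1648 to 2267 RPKM in control and 1793 to 1973 RPKM in OXCT1mKO. Csf1r, the receptor of a macrophage growth factor, was 45.8 and 28.8 RPKM in control and 128 and 115 RPKM in OXCT1mKO. The 1 marker that was lower was Lyz2, a lysozyme gene, at 688 and 744 RPKM in control and 8.76 and 6.52 RPKM in OXCT1mKO. Lyz2 is counted in the summed level of the 12 markers, so that sum does not show how the other macrophage markers differed. Kupffer cell markers summed to 28.3 to 31.0 RPKM in control and 223 to 373 RPKM in OXCT1mKO, with 5 of 6 higher. Conventional dendritic cell markers (6 of 6 higher) went from between 9.62 and 13.5 RPKM to between 52.4 and 59.6 RPKM, and monocyte markers (4 of 5 tested higher) from between 129 and 153 RPKM to between 315 and 394 RPKM. Endothelial markers (4 of 6 higher) summed to 258 to 343 RPKM and 561 to 618 RPKM. Among lists that were lower, T cell markers (5 of 6) summed to 133 to 197 RPKM in control and 44.0 to 70.2 RPKM in OXCT1mKO. Epithelial and hepatoma markers (3 of 6 lower) summed to 739 to 996 RPKM and 514 to 568 RPKM, proliferation genes (5 of 6 lower) to 118 to 133 RPKM and 76.7 to 77.2 RPKM, and exocrine pancreas genes (5 of 5 lower) to 25.2 to 35.1 RPKM and 1.07 to 2.06 RPKM. Hepatocyte markers (1 of 6 higher, 1 lower) summed to 465 to 546 RPKM in control and 394 to 574 RPKM in OXCT1mKO. Natural killer cell markers (1 of 4 higher, 2 lower) summed to 36.4 to 51.1 RPKM and 17.7 to 27.0 RPKM. Stellate cell markers (0 of 4 tested passed) summed to 152 to 179 RPKM and 105 to 169 RPKM. In other lists the controls lay far apart. Erythroid markers (0 of 5 passed) ranged from 846 to 24384 RPKM in control and from 309 to 330 RPKM in OXCT1mKO. Neutrophil markers (1 of 6 lower) ranged from 164 to 1311 RPKM in control and from 383 to 562 RPKM in OXCT1mKO, and B and plasma cell markers (0 of 4 passed) from 16.5 to 137 RPKM and from 61.6 to 77.9 RPKM. No marker in these lists was at 0 in all libraries. The part of these cells in the differences below was not tested, and in bulk samples fewer cells of a type and less RNA per cell cannot be told apart.

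The promoters of these genes were read from RefSeq on build GRCm38.p6. Each was the 250 bases before the RefSeq start site, for the 34 genes that had an entry. The GC box, GGGCGG, was present on either strand in 22 of the 34 (64.7%), against 33.0% of 27025 gene promoters. CCAAT was found on either strand in 20 of the 34 (58.8%), against 34.5% of all promoters, and TATAAA in 1, that of Got2, against 13% of all promoters. Among sites of regulators known for mitochondrial genes, the palindromic NRF1 motif, CCGGAAGT (ETS factors) and TCAAGGTCA (the oestrogen-related receptors) were found in 0 of the 34, against 0.777%, 2.92% and 0.366% of all promoters. The E-box CACGTG was present in 2, those of Pcx and Pdk2 (5.88%, against 6.04%), and TCACNCCAC, a sterol element, in 0, against 1.03%. The motifs found in 0 of the 34 are rare in all promoters, so 34 are too few to show a lack of them. The 27025 promoters were not limited to the genes tested. These matches are letters only, no binding was measured, and a link of the motifs to the differences was not tested. The stretches below are those of the gene with the largest rise among the 11 (Acss1), the largest fall (Idh2) and the carrier gene Mpc1, whose libraries overlapped. They lie at chr2:150668259-150668490 on the minus strand, chr7:80115393-80115600 on the minus strand and chr17:8283537-8283761 on the plus strand. RefSeq and GENCODE M21 place the starts of these genes differently, and the Idh2 stretch ends 42 bases before its RefSeq start. The GENCODE genes span 150618105 to 150668500 (Acss1) and 8282904 to 8297661 (Mpc1), so both stretches lie inside the gene as GENCODE draws it, whereas that of Idh2 lies just outside. Each runs 5′ to 3′ and ends where annotated untranslated sequence begins, so matches nearer the start site are not shown, and capitals mark GC boxes and CCAAT.
Acss1: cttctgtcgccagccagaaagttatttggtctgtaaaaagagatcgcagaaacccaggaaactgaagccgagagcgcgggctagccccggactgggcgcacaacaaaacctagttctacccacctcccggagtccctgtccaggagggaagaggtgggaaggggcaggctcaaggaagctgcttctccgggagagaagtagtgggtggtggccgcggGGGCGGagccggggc
Idh2: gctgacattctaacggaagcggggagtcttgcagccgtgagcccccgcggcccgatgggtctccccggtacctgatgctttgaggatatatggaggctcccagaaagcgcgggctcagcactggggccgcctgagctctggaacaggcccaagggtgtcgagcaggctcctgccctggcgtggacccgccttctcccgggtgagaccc
Mpc1: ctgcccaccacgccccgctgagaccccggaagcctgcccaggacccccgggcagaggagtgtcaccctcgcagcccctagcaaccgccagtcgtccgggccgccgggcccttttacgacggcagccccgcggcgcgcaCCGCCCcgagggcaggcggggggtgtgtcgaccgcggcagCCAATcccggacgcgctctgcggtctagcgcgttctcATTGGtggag
The printed stretch holds 1 match in Acss1, 0 in Idh2 and 3 in Mpc1, out of 2, 3 and 3 in their 250 bases.

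Levels differed widely among the 38 genes. The median of their control means was 32.5 RPKM, against 7.91 RPKM for all genes tested. Mdh2, mitochondrial malate dehydrogenase, had the highest control mean at 198 RPKM, followed by Idh2, the mitochondrial NADP-dependent isocitrate dehydrogenase, at 88.7 RPKM and Cs, citrate synthase, at 70.7 RPKM. At the low end were Acss1 and Acss2, the mitochondrial and the cytosolic acetyl-CoA synthetase, at 1.74 and 2.14 RPKM, and Pcx, pyruvate carboxylase, at 3.41 RPKM. In OXCT1mKO Mdh2 was still the highest, Glud1 and Got1 moved from places 9 and 11 in the order to 2 and 3, and Idh2 moved from place 2 to 7. Got1 was 62.4 ± 7.29 RPKM (SD, n = 2) in OXCT1mKO, and the means of Glud1 (66.3 RPKM) and Cs (58.4 RPKM) lay within that spread. Neither Glud1 nor Got1 passed the threshold. The control means of places 8 to 12, from Sdha to Got2, ran from 59.1 to 53.2 RPKM with SDs of up to 5.32 RPKM, so neighbours in this stretch of the order did not differ beyond their spread.

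**Figure D1:**
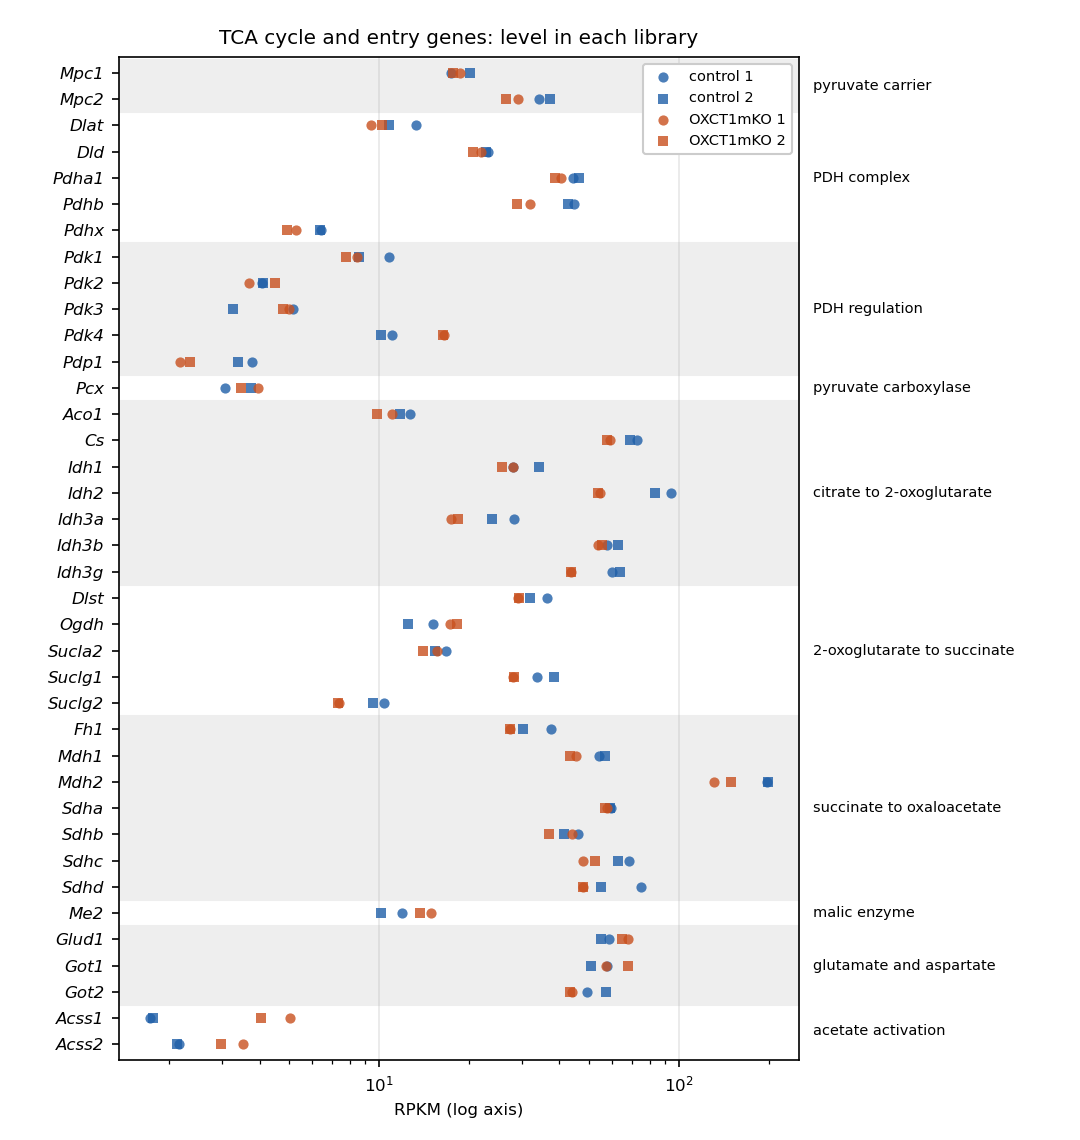
RPKM (log axis) of each of the 38 TCA cycle and entry genes in the 4 libraries, grouped by role; blue points are control, orange points OXCT1mKO, circles replicate 1 and squares replicate 2. Idh2, Idh3g and Mdh2 show both orange points left of both blue ones, and Pdk4 and Acss1 show both orange points to the right.

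Pyruvate crosses the inner mitochondrial membrane through a carrier of the products of Mpc1 and Mpc2. Mpc1 was 17.4 and 20.1 RPKM in control and 18.6 and 17.7 RPKM in OXCT1mKO, and these values overlap. Its difference of -0.037 on the log2 scale had a 95% interval of -0.31 to 0.24. Mpc2 was 34.2 and 37.3 RPKM in control and 29.0 and 26.5 RPKM in OXCT1mKO, without overlap. It just missed the threshold, at -0.35 ± 0.10 with a limma adjusted p of 0.05001 and passed in 2 of the 7 other settings. Mpc1 made up 33.7% and 35.0% of the summed level of the pair in control and 39.1% and 40.1% in OXCT1mKO. Exons of Mpc1 overlap those of 4930506C21Rik on the opposite strand, which was between 2.23 and 3.29 RPKM in the 4 libraries.

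The pyruvate dehydrogenase complex joins pyruvate decarboxylase (Pdha1 and Pdhb), the acetyl transferase Dlat, its binding protein Pdhx and the lipoamide dehydrogenase Dld, which 2-oxoglutarate dehydrogenase shares. All 5 genes had both OXCT1mKO libraries below both controls, as did 37% of all genes tested. Of the 5, 1 passed, and 16.4% of all genes tested passed as lower. Pdhb, the beta subunit of the decarboxylase, was 44.6 and 42.7 RPKM in control and 31.9 and 28.9 RPKM in OXCT1mKO. It fell from 43.6 ± 1.32 to 30.4 ± 2.1 RPKM (SD, n = 2), a log2 fold change of -0.51 ± 0.09 with a limma adjusted p of 0.0207. Pdha1, the alpha subunit with which it pairs, was 44.4 and 46.4 RPKM in control and 40.6 and 38.6 RPKM in OXCT1mKO, and its -0.19 ± 0.09 did not pass (limma adjusted p 0.139). Map3k15, whose exons overlap those of Pdha1 on the opposite strand, was between 6.48 and 8.36 RPKM. The subunit pair was thus nearly even in control, where Pdhb held 50.1% and 47.9% of their sum, and held 44.0% and 42.8% in OXCT1mKO. Dlat (-0.26), Pdhx (-0.28) and Dld (-0.10) had limma adjusted p of 0.168, 0.0918 and 0.385.

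Among the 5 regulators of the complex in the list of 38, 1 gene passed as higher and 1 as lower. These shares are near those of all genes tested, 16.4% higher and 16.4% lower. Pyruvate dehydrogenase kinases phosphorylate and switch off the complex, and Pdk4 is the isoform known to be induced by fasting and fatty acid use. It was 11 and 10.1 RPKM in control and 16.5 and 16.4 RPKM in OXCT1mKO, so that the groups were well apart. Pdk4 rose from 10.6 ± 0.62 to 16.4 ± 0.045 RPKM (SD, n = 2), a log2 fold change of 0.59 ± 0.09 with a limma adjusted p of 0.0156. The phosphatase gene Pdp1, whose product reactivates the complex, was 3.76 and 3.39 RPKM in control and 2.17 and 2.35 RPKM in OXCT1mKO. Pdp1 fell by 0.49 ± 0.12 on the log2 scale (limma adjusted p 0.0380).

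The other kinases did not pass. Pdk1, a target of hypoxia signalling, was 10.8 and 8.58 RPKM in control and 8.45 and 7.75 RPKM in OXCT1mKO (-0.22, limma adjusted p 0.248). Pdk2 and Pdk3 lay between 3.27 and 5.16 RPKM in every library, with overlapping groups and 95% intervals of -0.33 to 0.33 and -0.31 to 0.72. As a share of the summed kinase level, Pdk4 held 35.5% and 38.9% in control and 49.0% in both OXCT1mKO libraries, whereas Pdk1 held 34.7% and 32.9% in control and 25.2% and 23.2% in OXCT1mKO. In control these 2 isoforms were therefore near each other in level, and in OXCT1mKO Pdk4 led. The summed kinase level was 31.1 and 26.1 RPKM in control and 33.6 and 33.4 RPKM in OXCT1mKO. Pcx, which makes oxaloacetate from pyruvate, was 3.07 and 3.74 RPKM in control and 3.97 and 3.47 RPKM in OXCT1mKO, with overlap and a 95% interval of -0.25 to 0.46.

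The oxidative steps from citrate to 2-oxoglutarate held the largest fall of the 38 genes. All 7 genes of this stretch had a negative log2 fold change, against 6227 of the 12523 genes tested. Of the 7, 3 passed, and 16.4% of all genes tested passed as lower. That share was larger among genes of high level, at 27.7% from 30 to 60 RPKM and 39.3% above 60 RPKM. Idh2 makes mitochondrial NADPH, and its gene lies on chromosome 7 of GRCm38 from 80094846 to 80115392 on the minus strand. It was 94.0 and 83.3 RPKM in control and 54.4 and 53.9 RPKM in OXCT1mKO, with a wide gap between the groups. Idh2 fell from 88.7 ± 7.59 to 54.2 ± 0.33 RPKM (SD, n = 2), by 0.70 ± 0.10 on the log2 scale, with a limma adjusted p of 0.0137.

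The NAD-dependent isocitrate dehydrogenase of the cycle is built of Idh3a, the catalytic subunit, and Idh3b and Idh3g. Idh3g was 59.8 and 63.8 RPKM in control and 43.6 and 43.7 RPKM in OXCT1mKO. Idh3a was 28.2 and 23.8 RPKM in control and 17.4 and 18.3 RPKM in OXCT1mKO. Both fell, Idh3g by 0.49 ± 0.09 (limma adjusted p 0.0188) and Idh3a by 0.51 ± 0.11 (limma adjusted p 0.0304). Idh3b, at 57.4 and 62.7 RPKM in control and 53.6 and 55.4 RPKM in OXCT1mKO, did not pass (-0.14 ± 0.09, limma adjusted p 0.287). Its exons overlap those of Nop56 on the opposite strand, and without a stated strand setting their reads cannot be told apart. Nop56 itself was 59.5 and 62.5 RPKM in control and 33.6 and 37.8 RPKM in OXCT1mKO. The share of Idh3b in the 3 subunits was 39.5% and 41.7% in control and 46.8% and 47.2% in OXCT1mKO.

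Citrate synthase, the entry step, did not pass by a narrow margin. Cs was 72.5 and 68.9 RPKM in control and 59.0 and 57.8 RPKM in OXCT1mKO, a log2 fold change of -0.27 ± 0.08 with a limma adjusted p of 0.0654. Neither cytosolic enzyme passed. Aco1, cytosolic aconitase and iron regulatory protein, was 12.7 and 11.7 RPKM in control and 11.1 and 9.84 RPKM in OXCT1mKO. Idh1, the cytosolic NADP enzyme, was 28.0 and 34.2 RPKM in control and 28.0 and 25.7 RPKM in OXCT1mKO, with overlap. Their log2 fold changes of -0.20 each had limma adjusted p of 0.188 and 0.271. Idh2 held 77.1% and 70.9% of the summed level of Idh1 and Idh2 in control and 66.0% and 67.8% in OXCT1mKO.

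At 2-oxoglutarate, components of one complex had opposite signs. Ogdh, the decarboxylase that gives 2-oxoglutarate dehydrogenase its name, was 15.1 and 12.5 RPKM in control and 17.2 and 18.1 RPKM in OXCT1mKO, above both controls (0.34 ± 0.12, limma adjusted p 0.0847). Its transferase partner Dlst was 36.4 and 31.9 RPKM in control and 29.1 and 29.4 RPKM in OXCT1mKO, below both controls (-0.21 ± 0.10, limma adjusted p 0.159). Neither passed, and the share of Ogdh in their sum was 29.3% and 28.2% in control and 37.1% and 38.2% in OXCT1mKO.

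Succinyl-CoA synthetase makes GTP or ATP according to its beta subunit, Suclg2 or Sucla2, which pairs with the alpha subunit Suclg1. The GTP-forming subunit gene Suclg2 was 10.4 and 9.53 RPKM in control and 7.35 and 7.28 RPKM in OXCT1mKO. It fell by 0.40 ± 0.10 on the log2 scale (limma adjusted p 0.0373). Sucla2 overlapped between the groups, at 16.8 and 15.4 RPKM in control and 15.6 and 14.0 RPKM in OXCT1mKO (-0.11, 95% interval -0.38 to 0.15). Suclg1 was 33.7 and 38.3 RPKM in control and 28.0 and 28.3 RPKM in OXCT1mKO, and its -0.34 ± 0.10 did not pass (limma adjusted p 0.0561). Suclg2 held 38.3% and 38.2% of the beta subunits in control and 32.0% and 34.2% in OXCT1mKO.

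Succinate dehydrogenase, which is also respiratory complex II, has a catalytic part made by Sdha and Sdhb and a membrane anchor made by Sdhc and Sdhd. In the catalytic part, Sdha was 59.3 and 58.8 RPKM in control and 57.7 and 56.6 RPKM in OXCT1mKO, with a 95% interval of -0.26 to 0.16. Sdhb was 46.3 and 41.4 RPKM in control and 44.2 and 36.9 RPKM in OXCT1mKO, with overlap and a 95% interval of -0.44 to 0.21. Neither passed. In the anchor, Sdhc was 68.1 and 62.5 RPKM in control and 48.0 and 52.3 RPKM in OXCT1mKO, and fell by 0.37 ± 0.10 (limma adjusted p 0.0436). Sdhd was 74.8 and 55.1 RPKM in control and 47.9 and 48.1 RPKM in OXCT1mKO. The controls of Sdhd lay far apart, and its -0.41 ± 0.16 did not pass (limma adjusted p 0.107).

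Among the last steps, both malate dehydrogenases passed. Mdh2 was 197 and 199 RPKM in control and 130.5 and 149 RPKM in OXCT1mKO, and fell from 198 ± 1.01 to 139.6 ± 12.9 RPKM (SD, n = 2), by 0.50 ± 0.11 on the log2 scale with a limma adjusted p of 0.0270. Mdh1, the cytosolic enzyme of the malate-aspartate shuttle, was 54.1 and 56.7 RPKM in control and 45.4 and 43.4 RPKM in OXCT1mKO. It fell by 0.31 ± 0.09 (limma adjusted p 0.0483), near the threshold. Its exons overlap those of Wdpcp on the opposite strand, which was between 0.57 and 1.04 RPKM in the 4 libraries. Fh1, fumarase, was 37.5 and 30.3 RPKM in control and 27.3 RPKM in both OXCT1mKO libraries, and did not pass (-0.29 ± 0.13, limma adjusted p 0.130).

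Me2, the mitochondrial malic enzyme that turns malate to pyruvate, was 12 and 10.1 RPKM in control and 14.9 and 13.7 RPKM in OXCT1mKO. It lay above both controls (0.35 ± 0.12) and did not pass (limma adjusted p 0.0768). The cytosolic malic enzyme Me1, not among the 38 genes, was 7.69 and 8.42 RPKM in control and 3.69 and 2.94 RPKM in OXCT1mKO. Me1 fell by 1.07 ± 0.13 on the log2 scale (limma adjusted p 0.0127), so the malic enzymes had opposite signs.

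Glutamate enters the cycle as 2-oxoglutarate through glutamate dehydrogenase or the aspartate transaminases, and none of these 3 genes passed. Glud1, the dehydrogenase, was 58.5 and 55.0 RPKM in control and 67.9 and 64.7 RPKM in OXCT1mKO, above both controls (0.22 ± 0.09, limma adjusted p 0.113). Got1, the cytosolic transaminase, was 57.7 and 51.1 RPKM in control and 57.3 and 67.6 RPKM in OXCT1mKO, with overlap (0.19 ± 0.12, limma adjusted p 0.272). Got2, the mitochondrial transaminase, was 49.5 and 57.0 RPKM in control and 44.0 and 43.4 RPKM in OXCT1mKO, below both controls (-0.28 ± 0.10, limma adjusted p 0.0984). Of the 4 libraries, Got2 exceeded Got1 in control 2 alone. Got1 held 53.9% and 47.3% of their sum in control and 56.5% and 60.9% in OXCT1mKO.

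Acetate activation showed the largest rise. Acss1, the mitochondrial synthetase, lies on chromosome 2 of GRCm38 from 150618105 to 150668500 on the minus strand. It was 1.72 and 1.76 RPKM in control and 5.06 and 4.04 RPKM in OXCT1mKO, each OXCT1mKO library being above both controls. Acss1 rose from 1.74 ± 0.026 to 4.55 ± 0.72 RPKM (SD, n = 2), a mean 2.62 times that of control. On the log2(RPKM + 1) scale this was 1.01 ± 0.14, with a limma adjusted p of 0.0136, and 1.33 with a pseudocount of 0.1. Its exons overlap those of E130215H24Rik on the opposite strand, which was 1.49 and 0.42 RPKM in control and 0.54 and 0.77 RPKM in OXCT1mKO. Acss2, the nuclear and cytosolic synthetase, was 2.16 and 2.12 RPKM in control and 3.52 and 2.97 RPKM in OXCT1mKO. It had the same sign but did not pass (0.43 ± 0.13, limma adjusted p 0.0588), and passed without the variance trend and with equal RPKM sums. The exons of Gss, on the strand opposite Acss2, overlap its exons, and Gss was lower in OXCT1mKO (11.6 and 11.2 against 7.42 and 7.79 RPKM). Acss1 held 44.3% and 45.4% of the summed synthetase level in control and 59.0% and 57.7% in OXCT1mKO.

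**Figure D2:**
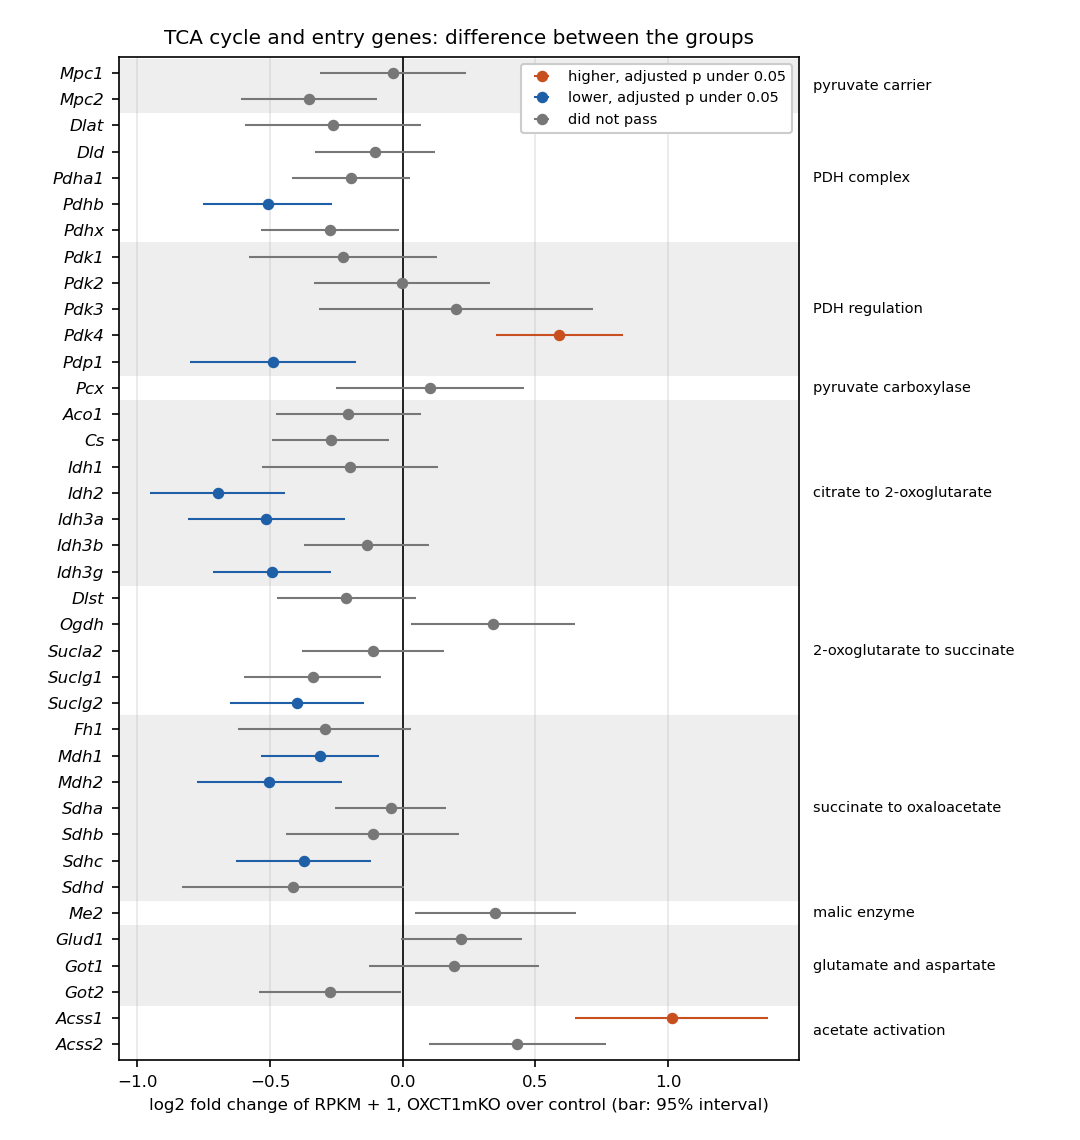
Log2 fold change of RPKM + 1 of OXCT1mKO over control for each of the 38 genes, grouped by role, with 95% intervals from the limma fit; blue and orange points passed an adjusted p of 0.05 and grey points did not. Acss1 and Pdk4 stand to the right at 1.01 and 0.59, and Idh2 is farthest left at -0.70.

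**Figure D3:**
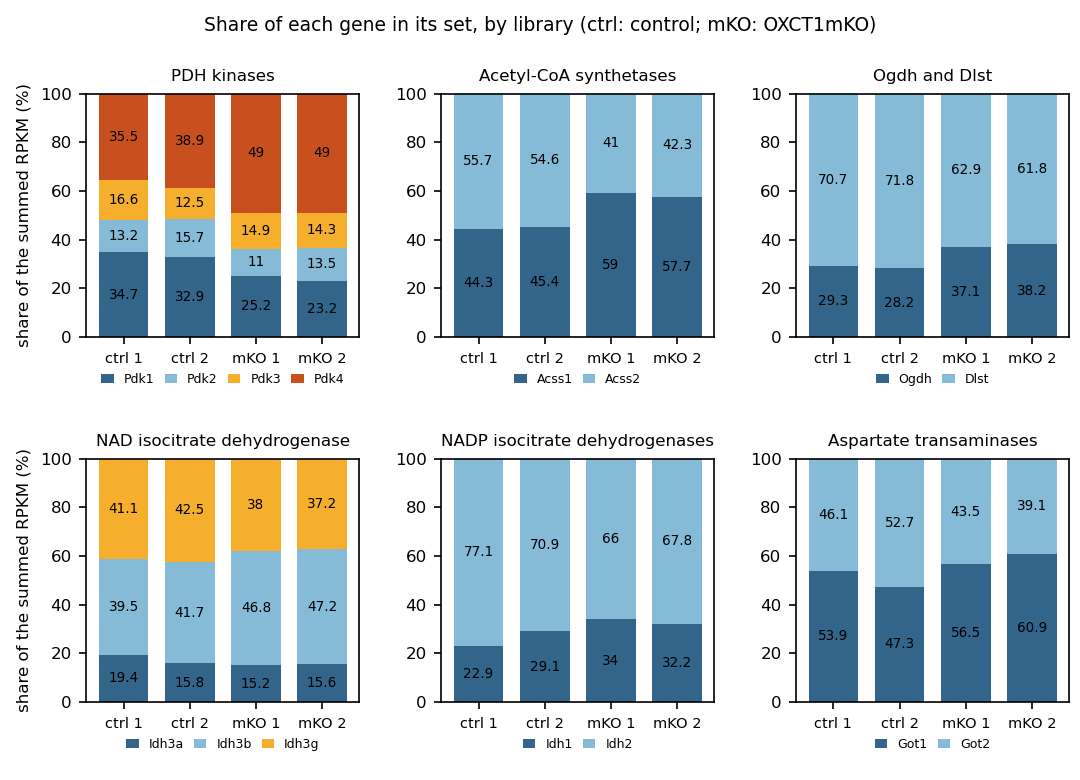
Share of each gene in the summed RPKM of its set (percent, stacked to 100) in each of the 4 libraries, for 6 sets of isoforms or subunits. Pdk4 held 35.5% and 38.9% of the kinases in control and 49.0% in both OXCT1mKO libraries, and Acss1 held 44.3% and 45.4% against 59.0% and 57.7% of the synthetases.

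Other genes of the pathway were counted from a list of 46 symbols, of which 45 were in the table and 41 were tested. Of these 4 were higher and 6 lower in OXCT1mKO (24.4% called, against 32.8% of all genes tested). Their median log2 fold change was -0.12. The carriers of the inner membrane went both ways. Slc25a10, the dicarboxylate carrier, was 13.5 and 10.9 RPKM in control and 8.16 and 7.45 RPKM in OXCT1mKO (-0.58 ± 0.13, limma adjusted p 0.0324), and Slc25a1, the citrate carrier, fell by 0.35 ± 0.09 (limma adjusted p 0.0394). Slc25a12, an aspartate-glutamate carrier, was 5.97 and 6.71 RPKM in control and 10.4 and 8.59 RPKM in OXCT1mKO (0.52 ± 0.13, limma adjusted p 0.0413). Pck2, the mitochondrial phosphoenolpyruvate carboxykinase, fell by 0.39 ± 0.11 (limma adjusted p 0.0493), and the other genes that were lower were Me1, Oxct1 and Ldha.

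Of the remaining genes that rose, Pdpr, the regulatory subunit of the pyruvate dehydrogenase phosphatase, was 1.15 and 1.04 RPKM in control and 2.63 and 3.18 RPKM in OXCT1mKO (0.89 ± 0.14, limma adjusted p 0.0160). Its direction was opposite to that of Pdp1. Crat, carnitine acetyltransferase, which buffers acetyl-CoA, rose by 0.45 ± 0.12 (limma adjusted p 0.0488). On the lactate side, the lactate dehydrogenase gene Ldha was 432 and 344 RPKM in control and 234 and 261 RPKM in OXCT1mKO (-0.64 ± 0.15, limma adjusted p 0.0341). Slc16a3, a lactate exporter, was 12.2 and 14.7 RPKM in control and 28.3 and 27.0 RPKM in OXCT1mKO (0.99 ± 0.12, limma adjusted p 0.0127), so this pair had opposite signs too.

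Acod1, whose product makes itaconate from the cycle intermediate aconitate, was 9.70 and 48.2 RPKM in control and 34.7 and 38 RPKM in OXCT1mKO. The controls enclosed both OXCT1mKO libraries, and its 95% interval ran from -1.15 to 2.55. Acly, which makes cytosolic acetyl-CoA from exported citrate, was 36.8 and 38.7 RPKM in control and 40.9 and 42.8 RPKM in OXCT1mKO, and did not pass (0.14 ± 0.09, limma adjusted p 0.240).

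Complex I, mitochondrial ribosome and glycolysis genes had lower medians than the TCA cycle and entry genes. The complex I list was taken by symbol (Ndufa, Ndufb, Ndufc, Ndufs or Ndufv with a number, and Ndufab1). The mitochondrial ribosome list was taken likewise (Mrpl or Mrps with a number). A symbol does not fix where a product works, so single genes of these lists may belong elsewhere. Of 37 genes with a complex I symbol, 28 were lower and 0 higher by limma, and their median was -0.55. Of these, 31 had a limma p under 0.05 before adjustment, against 6000 of the 12523 genes tested and 19 of the 38 TCA cycle and entry genes. Of 75 genes with a mitochondrial ribosome symbol, 60 were lower and 0 higher by limma, 69 had a p under 0.05 before adjustment, and the median was -0.54. Glycolysis genes were in between, with 9 lower and 2 higher of 20, 15 with a p under 0.05 before adjustment, and a median of -0.37. For the 38 TCA cycle and entry genes the values between the quartiles ran from -0.35 to -0.011, and for complex I from -0.68 to -0.43. These lists are described side by side, and the difference between them was not tested.

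**Figure D4:**
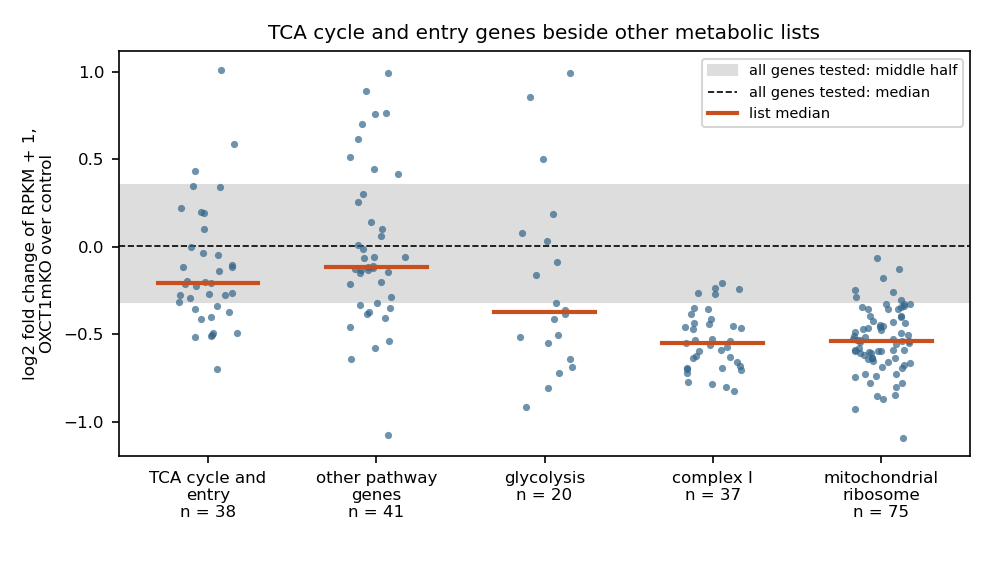
Log2 fold change of RPKM + 1 of OXCT1mKO over control (y axis) for each gene tested (points) in 5 lists (x axis), with the list median as an orange line, the median of all genes tested as a dashed line and the range between their quartiles as a grey band. The medians were -0.21 for the TCA cycle and entry genes, -0.12, -0.37, -0.55 and -0.54 for the other lists from left to right.

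Level and transcript length moved with the difference over all genes tested. The median log2 fold change of all genes went from 0.06 at a mean of 1 to 5 RPKM to -0.11 at 30 to 60 RPKM and -0.27 above 60 RPKM, and 19 of the 38 genes lay in the last 2 classes. In those classes the medians of the TCA cycle and entry genes were -0.29 (15 genes) and -0.39 (4 genes). Of all genes in those classes, 27.7% and 39.3% passed as lower, and 17.6% and 14.0% as higher. Of the TCA cycle and entry genes there, 4 of 15 and 2 of 4 passed as lower, and 0 as higher. By summed exon length, all genes went from a median of -0.29 under 1500 bases to 0.21 from 6000 bases upward. The 17 TCA cycle and entry genes of 2500 to 4000 bases had a median of -0.20, against -0.10 for all genes of that length. The 13 genes of 4000 to 6000 bases had a median of -0.26, against 0.020. Across the 38 genes, Pearson's r of the log2 fold change with log2 exon length was 0.17, against 0.22 across 12333 genes tested, as a description over genes that share libraries. The part of level and length in the single differences was not tested.

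**Figure D5:**
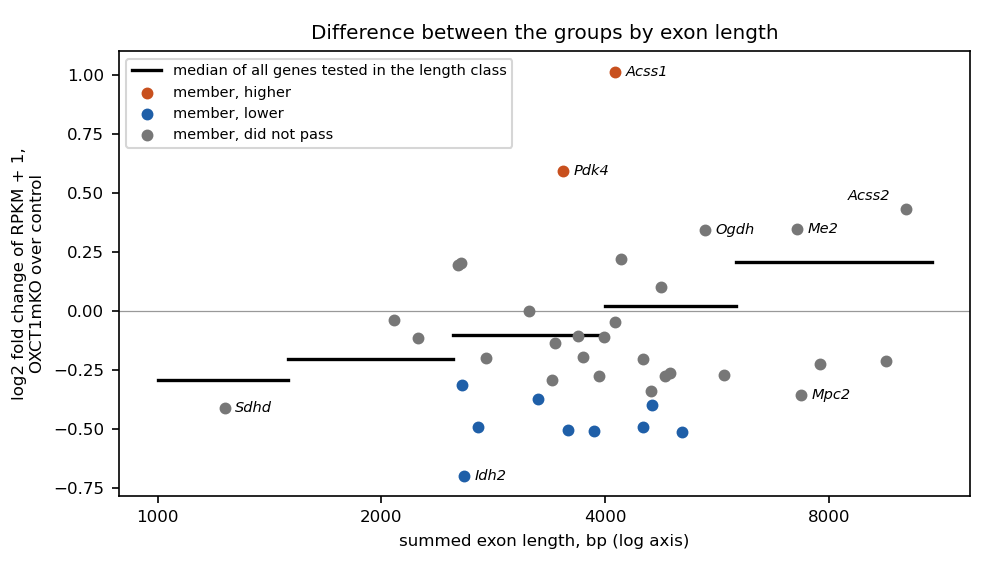
Log2 fold change of RPKM + 1 of OXCT1mKO over control against summed exon length in bases (log axis) for the 38 genes (points, coloured by the limma call), with black lines for the median of all genes tested in 5 length classes. The black lines go up from -0.29 to 0.21, and the 9 blue points are the genes that passed as lower.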

How the data were processed

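RNA of 2 control and 2 OXCT1mKO samples was measured, with group and replicate number taken from each sample's title. The authors deposited 1 table of RPKM values per gene symbol. The submitters' processing notes name STAR 2.10, R 4.0.5 and build mm10. The sources used here do not give the read counter, strand setting, annotation or gene lengths. A protocol text that names a microarray does not describe these values. No count model was fitted to these RPKM values, and the read depth, and with it any counting interval, is unknown.

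Values were transformed to log2(RPKM + 1), which understates the change of low genes. Genes whose mean RPKM reached 1 were fitted in limma 3.58.1 (R 4.3.3) with 1 coefficient for the group and a variance trend. Tests were two-sided and adjusted over the 12523 genes. The fit was tested on simulated data. An exact permutation test of 2 against 2 cannot give a p below 0.333. The labels do not say whether each sample is an animal of its own, and the p-values reflect the spread of these 4 samples alone, which may be technical. The 38 genes, the lists and the alternatives were chosen with earlier results of these data known. The promoter motifs were chosen after the values were seen. All 38 genes are described. Values in every library are given for those that passed or reached 30 RPKM in a group mean, as the rule for named genes asks; those of other genes of the 38 were added after their values were seen. From the other pathway list, genes that passed are named, and Oxct1, Acod1 and Acly whatever their values; some results are not reported here. Exon lengths and positions came from GENCODE M21 (GRCm38), which is mm10, and promoters from RefSeq (GRCm38.p6). Same-numbered libraries were not treated as pairs. Alternatives were a pseudocount of 0.1, other filters, no trend, 2 rescalings, a replicate block and leaving out each library.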

Additional observations from a re-analysis of the deposited data

How the results depend on the processing

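All 11 calls of the TCA cycle and entry genes kept their direction under each alternative in which the gene was tested. Their groups did not overlap, so among the alternatives only the 2 rescalings could have turned a sign. The counts below are genes higher and lower in OXCT1mKO, and the causes of the shifts were not tested. Without the filter on low values, 2 TCA cycle and entry genes were higher and 3 lower, and the other pathway genes gave 2 and 1. Glycolysis then gave 1 and 3, the mitochondrial ribosome 0 and 37, and all genes 1191 and 1149 of 19514. With a mean RPKM of at least 5, where 32 of the 38 genes were left, 1 was higher and 10 lower. The other pathway genes then gave 2 and 6, and all genes 1562 and 1873 of 8204 (41.9% called) with a median of -0.033. With equal RPKM sums without globin, the 38 genes gave 4 and 4 with a median of -0.11, the other pathway 7 and 1, and glycolysis 2 and 5. The medians of glycolysis, complex I, the mitochondrial ribosome and all genes were then -0.27, -0.45, -0.44 and 0.089. This scaling turned the signs of Mpc1 (0.058), Pdk2 (0.078) and Sdha (0.053), none of which passed.

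With the replicate number as a block, 2 of the TCA cycle and entry genes were higher and 5 lower (Mdh1, Pdp1, Sdhc and Suclg2 lost their calls). The other pathway genes then gave 4 higher and 3 lower, and all genes 1871 and 1735. Over 12523 genes the deviations of same-numbered libraries correlated at 0.0545, and only 2 such pairs exist, so they were not taken as pairs.

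Leaving out each library in turn gave 0 to 4 higher and 0 to 10 lower among the 38 genes, with medians of -0.25 to -0.15. The other pathway genes gave 0 to 4 and 0 to 5 with medians of -0.13 to -0.04, and glycolysis 0 to 2 and 0 to 12 with medians of -0.45 to -0.29. Complex I gave 0 to 27 lower (medians -0.62 to -0.51), the mitochondrial ribosome 0 to 51 lower (medians -0.57 to -0.53), and all genes 0 to 2362 higher and 1 to 2056 lower (medians -0.019 to 0.027). All zeros came from leaving out an OXCT1mKO library, where 7 (without OXCT1mKO 1) and 10 (without OXCT1mKO 2) of the 38 genes had a p under 0.05 before adjustment and the lowest limma adjusted p were 0.108 and 0.0718. The group with 1 library was assumed to vary like the other. Genes that had not passed and whose sign turned ranged from -0.13 to 0.060 (Mpc1), -0.12 to 0.12 (Pdk2), -0.064 to 0.47 (Pdk3), -0.0090 to 0.21 (Pcx) and -0.24 to 0.014 (Sdhb). With 2 libraries a group and unknown depth, small differences in low genes such as Pcx, Pdk2 and Pdk3 were not resolved.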
